A study of Mus musculus with 6 samples.

Results

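The interferon and antiviral sensing genes described here are a set of 37 named mouse genes, which comprise interferon receptors, the kinases and transcription factors downstream of them, sensors of viral RNA, antiviral effectors and the machinery of antigen presentation. They were chosen by name, through the single gene symbol that the array's table gives a probe set. Of the 37 genes 36 were measured, out of 18193 genes with such a probe set. Isg15, which encodes a ubiquitin-like modifier, is listed only on a probe set shared with another gene and is given no value. Where a gene has several such probe sets, the one whose mean on the 6 arrays was highest stands for it.

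Total RNA had been profiled on 6 Affymetrix mouse whole-genome expression arrays, 3 of uninduced and 3 of induced cultures. Both groups were undifferentiated mouse embryonic stem (ES) cells of the EBRTcH3 (EB3) line, kept with LIF in serum medium, and both carried in the ROSA26 locus a human GTF2IRD2 coding sequence with a FLAG tag behind a tetracycline-repressible promoter. Uninduced cells (0 hours) were grown with tetracycline and induced cells had been without it for 24 hours. Each of the clones A3, A4 and A5 gave 1 array per group, each clone is a separately picked line, and no culture lacked the transgene. The transgene is human, so the mouse probe sets need not detect it, and its level is not given here.

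Cells recognise viral RNA with cytoplasmic helicases such as RIG-I (Ddx58) and MDA5 (Ifih1) and with endosomal Toll-like receptors. The helicases signal through the mitochondrial adaptor Mavs to the kinase Tbk1, which activates Irf3 and so the genes of the type I interferons. Secreted interferon acts through the Ifnar1 and Ifnar2 receptor, the kinases Tyk2 and Jak1 and a complex that contains Stat2 and Irf9, which binds the interferon-stimulated response element (ISRE) of genes such as Ifit1 and Mx1. Pluripotent stem cells are known for a weak interferon system, and for the constant expression of a few of its effectors.

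The promoters of 6 members are shown because they hold, or do not hold, matches to a letter pattern of the ISRE, next to very different array signals. The sequences come from RefSeq (GRCm38.p6), and each holds the 160 bases before the annotated start of the gene, 5′ to 3′ on the gene's strand. Capitals mark matches to the ISRE pattern GAAANNGAAA on either strand. The run of capitals in Bst2 holds 2 overlapping matches.
Ifit1 (chr19:34640729-34640888, plus strand): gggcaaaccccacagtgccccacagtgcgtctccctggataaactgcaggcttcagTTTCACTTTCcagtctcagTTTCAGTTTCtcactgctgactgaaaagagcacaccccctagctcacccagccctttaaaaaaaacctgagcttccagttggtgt
Ifit3 (chr19:34583369-34583528, plus strand): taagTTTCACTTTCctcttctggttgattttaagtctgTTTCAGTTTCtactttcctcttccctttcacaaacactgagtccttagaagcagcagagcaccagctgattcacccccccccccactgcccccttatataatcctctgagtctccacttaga
B2m (chr2:122147527-122147686, plus strand): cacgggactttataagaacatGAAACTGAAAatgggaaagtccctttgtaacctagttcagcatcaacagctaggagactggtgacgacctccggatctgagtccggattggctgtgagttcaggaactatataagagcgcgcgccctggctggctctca
Bst2 (chr8:71537473-71537632, minus strand): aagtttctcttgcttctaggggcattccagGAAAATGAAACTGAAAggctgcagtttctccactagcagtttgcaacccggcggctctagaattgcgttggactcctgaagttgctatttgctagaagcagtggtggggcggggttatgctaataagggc
Ifitm2 (chr7:140955962-140956121, minus strand): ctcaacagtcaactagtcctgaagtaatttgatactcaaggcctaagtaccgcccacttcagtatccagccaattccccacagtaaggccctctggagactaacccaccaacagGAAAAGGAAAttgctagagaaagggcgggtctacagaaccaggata
Ifitm1 (chr7:140967916-140968075, plus strand): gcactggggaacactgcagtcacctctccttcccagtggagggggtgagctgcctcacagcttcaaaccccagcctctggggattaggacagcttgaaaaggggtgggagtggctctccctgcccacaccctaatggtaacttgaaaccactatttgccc
The windows of Ifit1 and Ifit3 held 2 matches each, at -104 and -85 and at -156 and -122 relative to the start. In B2m the match began at -139, in Ifitm2 at -46, and in Ifitm1 there was none.

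Expression values are log2 RMA signals, a background-corrected and quantile-normalised summary of the probes of a probe set, on which a difference of 1 is a doubling. Array medians lay between 5.03 and 5.06, and the arrays correlated with each other at 0.996 to 0.998. The values come without detection calls. To describe low signals, 42 measured genes of other tissues (of 49 listed, such as those of liver, muscle or pancreas) were used as a reference, whose means spanned 2.39 to 6.90 with a median of 4.31. A gene at or below their 90th percentile, 5.88, is said here to lie in the low range. This describes the signal only: probe sets differ in affinity, so a low signal does not show that a transcript was absent, and signals of different genes do not rank their transcripts. In such bulk samples, fewer cells that express a gene and less RNA per cell cannot be told apart.

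The cells carried the markers of their label. All 10 listed ES cell markers were above the low range on these arrays, among them Dppa5a (13.88), Pou5f1 (12.58) and Zfp42 (12.44). Of other lists, 1 of 8 fibroblast markers was above it (Thy1, 6.50), as were 1 of 8 leukocyte markers (Cd68, 8.21), 0 of 6 of primitive endoderm and 2 of 5 of trophoblast (Tfap2c, 8.95, and Eomes, 6.51). Ptprc, the pan-leukocyte antigen CD45, read 2.60. The mean over all markers of a list was 4.25 to 4.33 for fibroblasts and 4.78 to 4.89 for leukocytes over the 6 arrays.

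Of the 36 measured members 20 lay above the low range, each on all 6 arrays, and 16 lay within it, each on all 6. The share above, 55.6%, was close to that of all genes (53.3%), and the members' median of 6.41 compares with 6.15 over all genes. Most of the receptors and the path from RIG-I through Mavs and Tbk1 to Irf3 were above the low range. MDA5, Toll-like receptor 3, Irf7, Stat2 and the classical induced effectors of the Ifit, Mx and Oasl families were in it. Jak2, at 5.97, was the member just above the limit, and Tap1 (5.58) and Tap2 (5.54) were just below it.

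**Figure D1:**
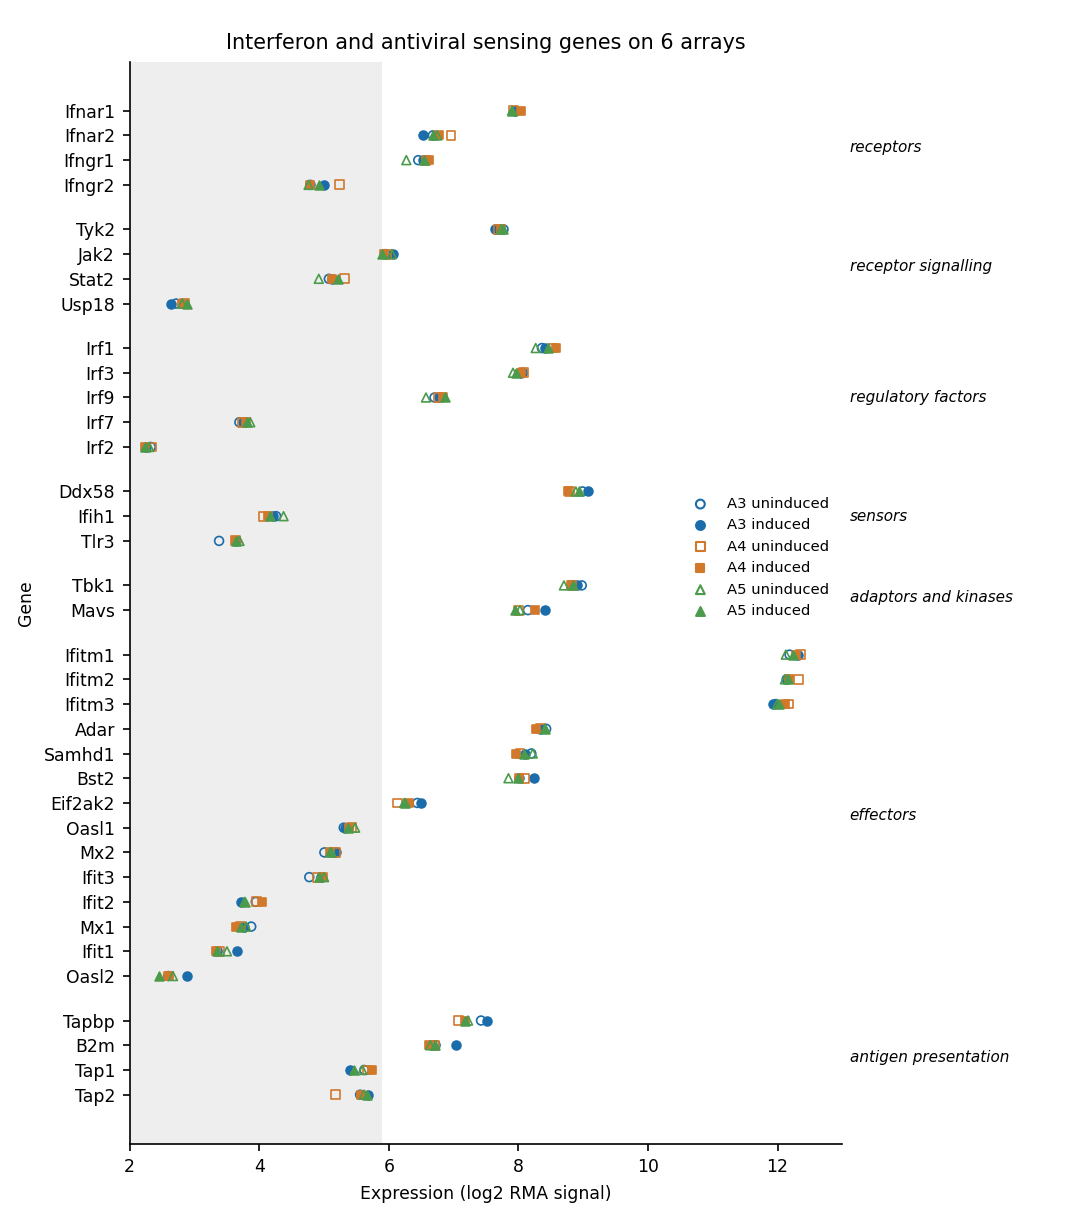
Expression (log2 RMA signal, x axis) of the 36 measured genes (y axis, grouped by role) on each of the 6 arrays. Uninduced cultures of clones A3, A4 and A5 have open symbols and induced ones filled symbols, and the grey band is the low range up to 5.88. The 6 arrays of a gene lie close together, with 20 genes to the right of the band and 16 inside it.

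Among the receptors, both chains of the type I receptor gave clear signals. Ifnar1, its low-affinity chain, read 7.95, 7.93 and 7.90 in uninduced A3, A4 and A5 and 7.95, 8.04 and 7.90 in the induced cultures. Ifnar2, the high-affinity chain, read 6.68, 6.96 and 6.75 uninduced and 6.52, 6.77 and 6.68 induced. The ranges of the groups overlapped for both chains. For the type II receptor, Ifngr1, the ligand-binding chain, read 6.27 to 6.62 over the arrays, while Ifngr2, the signalling chain, read 4.76 to 5.24 and lay in the low range. The other probe sets of Ifnar1 and Ifnar2 were in the low range as well.

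Of the receptor-proximal genes, the kinase gene Tyk2 read 7.77, 7.69 and 7.73 in the uninduced clones and 7.65, 7.74 and 7.76 in the induced. Jak2, the kinase of the interferon gamma receptor, read 5.89 to 6.06. Stat2, a transcription factor of the type I response, was in the low range at 4.92 to 5.31, and so was Usp18, an ISG15 protease that also restrains the type I receptor, at 2.64 to 2.89. Other genes of this step from a wider list of the pathway were mostly well above the limit, 7 of 8, with Ptpn2 and Socs3, both inhibitors of the pathway, at 10.94 each and Stat3, the mediator of the LIF signal, at 9.76.

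The interferon regulatory factors fell on both sides. Irf1, a factor induced by interferon gamma in other cells, read 8.27 to 8.58, and Irf9, the DNA-binding part of the type I complex, 6.57 to 6.86. Irf3, the factor that acts first after sensing, read 8.07, 8.08 and 7.92 uninduced and 8.04, 8.04 and 7.96 induced. Its 3 other probe sets had means of 6.66, 5.06 and 4.96. The chosen probe sets of Irf3 and of 4 other members (Irf2, Tlr3, Mavs and Tbk1) are of kinds that can match related transcripts. Irf7, which amplifies interferon production once induced, was in the low range at 3.69 to 3.86. Irf2, an antagonist of Irf1, read 2.23 to 2.34 on its single probe set, near the lowest signals of the arrays. Among other regulatory genes 4 of 7 were above the limit, with the corepressor genes Irf2bpl (9.74), Irf2bp1 (8.74) and Irf2bp2 (8.67) as the highest signals.

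Of the 3 sensors of viral RNA, only RIG-I was above the low range. Ddx58, which encodes RIG-I, read 8.99, 8.79 and 8.89 in the uninduced and 9.07, 8.77 and 8.94 in the induced clones. Ifih1, which encodes MDA5, read 4.26, 4.07 and 4.38 uninduced and 4.21, 4.13 and 4.16 induced. Tlr3, the endosomal receptor of double-stranded RNA, read 3.38, 3.63 and 3.70 uninduced and 3.65 in each induced clone. Ddx58 thus lay above the low range on every array and the other sensors below its limit on every array. The other probe sets of Ddx58 had means of 6.48 and 3.91, so its level rests on the probe set chosen. Of 10 further sensors from the wider list only Nod1 (6.24), Tlr2 (6.12) and Tlr9 (5.88) were above the limit, all by little.

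Downstream of RIG-I, both members of the adaptor step were above the low range. Mavs, the adaptor on mitochondria, read 8.15, 8.00 and 8.02 uninduced and 8.40, 8.25 and 7.94 induced, with a second probe set at a mean of 7.35. Tbk1, the kinase that phosphorylates Irf3, read 8.98, 8.83 and 8.70 uninduced and 8.90, 8.81 and 8.84 induced, with a second at 7.81. The groups overlapped for both genes. In the wider list 9 of 11 further adaptors and kinases were above the limit, led by Trim25 (10.76), the ubiquitin ligase that activates RIG-I, then Azi2 (8.64) and Ikbkb (7.46). At the other end of the chain, 0 of 7 measured interferon genes were above it. Their means spanned 2.50 to 5.34, the highest being Ifnz (5.34), Ifna1 (4.96) and Ifna5 (4.33).

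**Figure D2:**
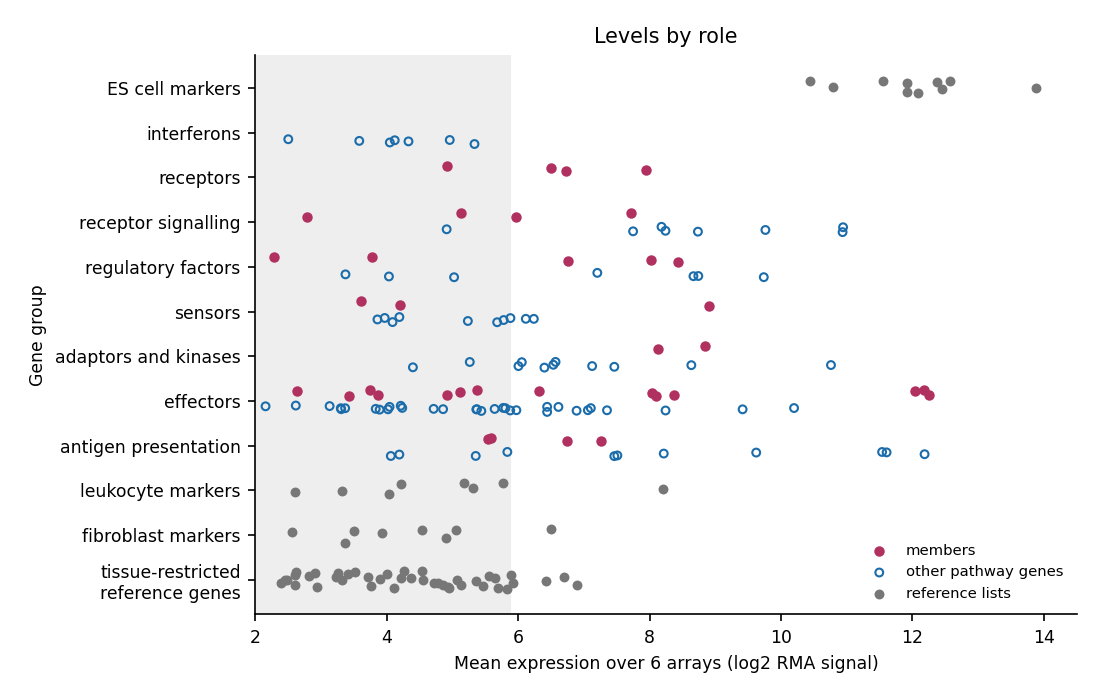
Mean expression over 6 arrays (log2 RMA signal, x axis) of genes grouped by role (y axis), with the members filled, the other pathway genes open and the reference lists in grey, and the low range as a grey band. The 7 interferon genes lie inside the band, the 10 ES cell markers lie between 10.44 and 13.88, and the effectors span both sides.

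The effectors, the products that act on viruses, were evenly divided, with 7 of 14 measured members above the low range. The 3 Ifitm genes, whose membrane proteins restrict the entry of enveloped viruses, had signals at the 98.6 to 98.9 percentile of all probe sets. Ifitm1 read 12.18, 12.36 and 12.13 uninduced and 12.31, 12.28 and 12.24 induced. Ifitm2 read 12.11 to 12.32 and Ifitm3 11.93 to 12.17 over the arrays. The paralogs are similar in sequence, so that cross-hybridisation between them cannot be told apart from the expression of each. Bst2, which encodes tetherin, a protein that holds budding virions at the membrane, read 8.02, 8.10 and 7.85 uninduced and 8.24, 8.01 and 7.99 induced. Adar, the editor of double-stranded RNA, read 8.27 to 8.43, and Samhd1, a dNTP hydrolase that starves retroviruses, 7.96 to 8.22. Eif2ak2, which encodes PKR, the kinase that halts translation on double-stranded RNA, read 6.44, 6.13 and 6.24 uninduced and 6.50, 6.32 and 6.25 induced.

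The other 7 effectors lay in the low range on all arrays. Ifit1, whose product binds viral RNA that lacks the host's cap methylation, read 3.36, 3.39 and 3.50 in the uninduced and 3.66, 3.34 and 3.35 in the induced clones. Its neighbours in the same family, Ifit2 and Ifit3, read 3.71 to 4.05 and 4.77 to 5.00. Mx1, a dynamin-like GTPase that blocks viral nucleocapsids, read 3.88, 3.71 and 3.80 uninduced and 3.77, 3.64 and 3.72 induced, and Mx2 read 5.01 to 5.19. RefSeq lists Mx1 and Mx2 as transcribed pseudogenes in the reference strain. The OAS-like genes Oasl1 and Oasl2 read 5.30 to 5.48 and 2.46 to 2.88. Of 32 further effectors from the wider list 11 were above the limit, among them the cytidine deaminase gene Apobec3 (10.20), Pml (9.42), the scaffold of nuclear bodies, and Oas1a (8.24).

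In antigen presentation 2 of 4 members were above the low range. B2m, the light chain of MHC class I, read 6.72, 6.70 and 6.64 uninduced and 7.03, 6.62 and 6.71 induced. Tapbp, which encodes tapasin, the chaperone that loads peptides, read 7.42, 7.07 and 7.22 uninduced and 7.51, 7.17 and 7.17 induced. The peptide transporter subunits were just within the low range, Tap1 at 5.41 to 5.75 and Tap2 at 5.18 to 5.68. Of 11 further genes of this step 7 were above it, with the endoplasmic reticulum chaperones Calr (12.19), Canx (11.61) and Pdia3 (11.54) as the highest signals.

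Genes with several probe sets limit how firmly a level can be read. Of the 13 members above the low range that have more than 1 probe set, 5 were above it on all of them. For the other 8, which are Adar, Ddx58, Eif2ak2, Ifnar1, Ifnar2, Irf3, Jak2 and Samhd1, at least 1 probe set lay in the low range. With the mean of a gene's probe sets in place of the highest, 18 of 36 members were above the limit. With the highest reference gene as the limit 14 were above it, and with the 75th percentile 23.

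The first comparison of the design asks whether these genes had moved 24 hours after the tetracycline removal that switches on GTF2IRD2. None passed the threshold. No culture lacked the transgene, so effects of the transgene and of the removal itself cannot be told apart. Over the whole array limma called 0 of 45037 probe sets at an adjusted p under 0.05 (0%), and so 0 of the 36 members. At an unadjusted p under 0.05 limma gave 0 members, against 3.12% of all probe sets, and with the clone as a block also 0, against 5.77%. The methods' t-test gave 1 of the 36 members at an unadjusted p under 0.05, against 1681 of all 45037 probe sets. After adjustment it gave 0 members. The smallest unadjusted p of a member was 0.112, for Irf9, by limma without the block and 0.0613, for Tap2, by limma with it.

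The members' differences, induced minus uninduced, were small on both sides of 0. They ran from -0.14 for Ifnar2 to 0.18 for Tap2, with 20 genes higher and 16 lower in the induced cultures. Their median was 0.02, against -0.00373 over all probe sets, and the single clones had medians of 0.05 (A3), -0.02 (A4) and 0.01 (A5, 0.00540). In 10 of 36 members, or 27.8%, the difference had 1 sign in all 3 clones, 5 higher and 5 lower, where 25.9% of all probe sets did. The groups did not overlap in 1 member, against 7.95% of all probe sets. It was Irf2, which read 2.33, 2.34 and 2.30 uninduced and 2.26, 2.24 and 2.23 induced, all near the lowest signals of the arrays. Irf2 was also the member the methods' t-test gave.

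The data bound the size of any response. The 95% interval of the difference lay within 1.5-fold in either direction for 36 of 36 members, as it did for 98.1% of all probe sets, with a median half-width of 0.20 on the log2 scale. The widest bound was that of Tap2, whose difference of 0.18 ± 0.12 (SE) had an interval of -0.08 to 0.45, or up to 1.36-fold. Tap2 read 5.56, 5.18 and 5.62 uninduced and 5.68, 5.57 and 5.66 induced, so that the low value of uninduced A4 stood apart and the groups otherwise overlapped. Irf9 read 6.71, 6.77 and 6.57 uninduced and 6.77, 6.83 and 6.86 induced, a difference of 0.14 ± 0.08 (SE) with an interval of -0.04 to 0.31. The RIG-I gene Ddx58 differed by 0.04 ± 0.10 (-0.18 to 0.26), its adaptor Mavs by 0.14 ± 0.12 (-0.13 to 0.41) and the kinase Tbk1 by 0.02 ± 0.09 (-0.18 to 0.21). On their second probe sets, all above the low range, Ddx58 differed by 0.04 ± 0.10, Mavs by -0.09 ± 0.08 and Tbk1 by 0.09 ± 0.10. For Mavs the sign was thus the other way, with a lower induced value in each clone. For genes in the low range a 95% interval bounds the signal, which for a weak probe set can understate a change in transcript. These p-values and intervals rest on the spread among the arrays, which limma draws towards a spread pooled over all probe sets. Without the block, that spread includes the differences between clones. The values reach no further than these 3 clones, each cultured once per state.

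**Figure D3:**
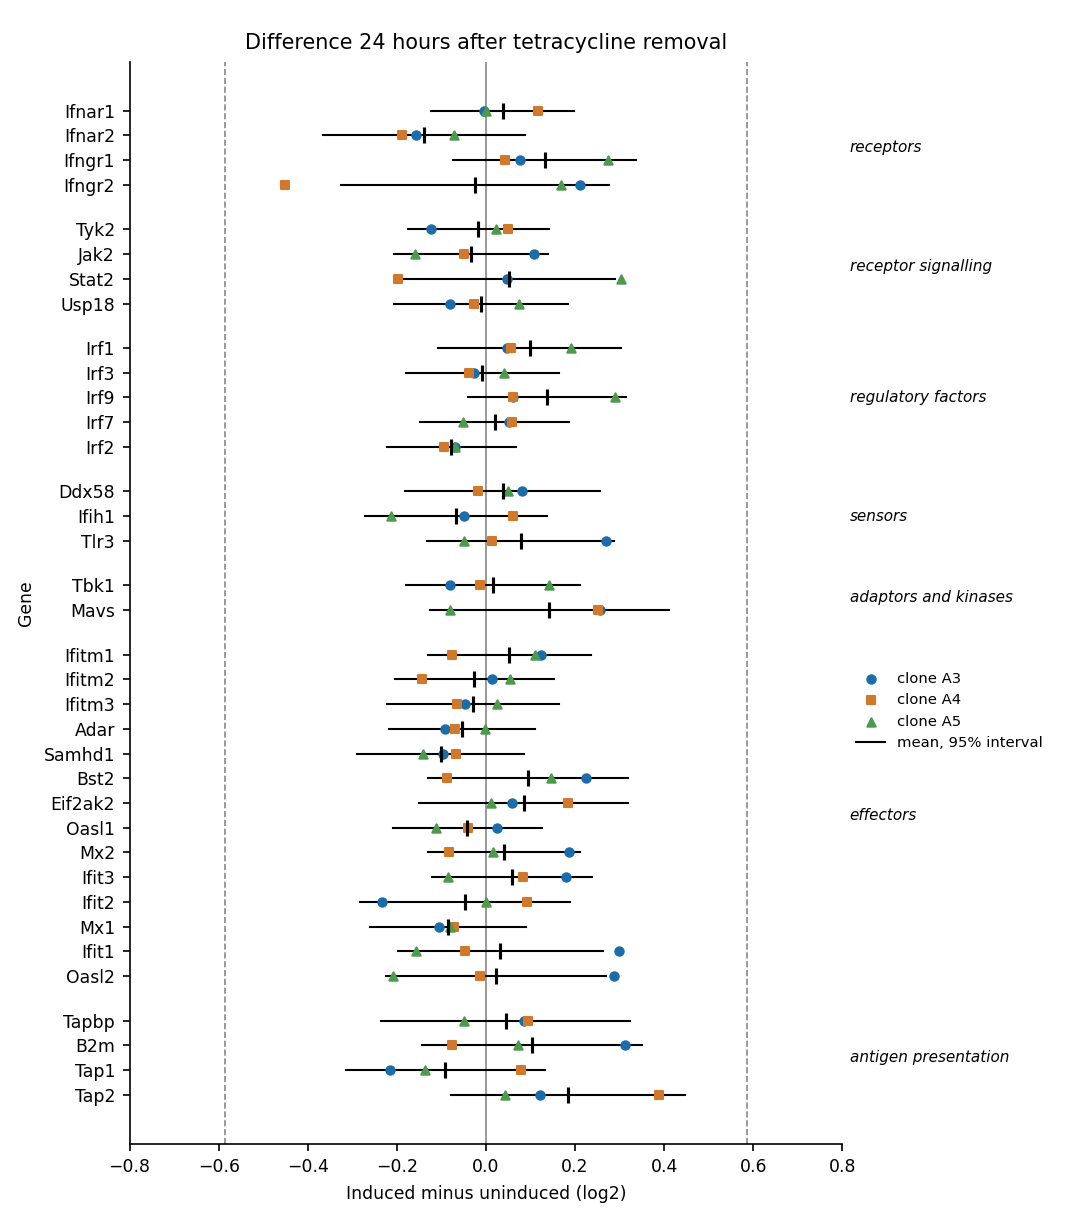
Difference between induced and uninduced cultures (log2, x axis) of the 36 genes (y axis, by role), as the value of each clone, the mean (tick) and its 95% interval from limma without a block, with dashed lines at 1.5-fold. Each interval crosses 0 and each lies inside the dashed lines, the widest bound being that of Tap2.

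For most members the clones differed in sign. In A3, Ifit1 differed by 0.30, Oasl2 by 0.29 and B2m by 0.31. In A4 and A5 Ifit1 differed by -0.05 and -0.16, Oasl2 by -0.01 and -0.21 and B2m by -0.08 and 0.07. The other probe set of B2m, also above the low range, did not show this mixed sign. It was higher in each induced clone, with a difference of 0.20 ± 0.14 (SE) that limma did not call. Ifngr2 differed by -0.45 in A4 and by 0.21 and 0.17 in A3 and A5. Both of its probe sets are in the low range, and the other was lower in each induced clone. That probe set read 4.32, 4.68 and 4.45 in uninduced A3, A4 and A5 and 4.21, 4.49 and 4.44 induced. The classical interferon-induced genes shared no sign across clones: of Ifit1, Ifit2, Ifit3, Mx1, Mx2, Oasl1 and Oasl2, only Mx1 kept 1 sign in the clones, at -0.11, -0.07 and -0.08. The 7 interferon genes of the wider list had a median difference of -0.07 and 0 called by limma. Of all 86 other pathway genes measured, 0 were called. At an unadjusted p under 0.05 there were 6 (6.98%, against 3.12% of all probe sets), or 8 with the block (9.30%, against 5.77%).

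The second comparison asks whether the clones differ from each other. By limma's F-test of the clone term, 0 of 36 members passed at an adjusted p under 0.05, where 2.18% of all probe sets did. At an unadjusted p under 0.05 there were 4 members, or 11.1%, against 15.0% of all probe sets. The range of the 3 clone means had a median of 0.16 over the members and 0.14 over all probe sets, and was at most 0.35. The 4 members were Tapbp, Ifnar2, Eif2ak2 and Ddx58.

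Tapbp had the widest range, 0.35 (adjusted p = 0.160, limma). Both of its A3 arrays, at 7.42 and 7.51, lay above the 4 others, which read 7.07 to 7.22. Its second probe set ranged over 0.08 and did not show this. Ddx58 was likewise highest in A3 and lowest in A4, with clone means of 9.03, 8.78 and 8.91 (adjusted p = 0.326, limma). Its second probe set, also above the low range, did not share this order: A3 lay 0.12 ± 0.08 (SE) below the mean of the others and A5 0.21 ± 0.08 above it (adjusted p = 0.398, limma). Ifnar2 was lowest in A3 (6.60) and highest in A4 (6.87), with 6.71 in A5 (adjusted p = 0.303, limma).

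Eif2ak2, the gene of PKR, was the only member with a probe set past the threshold, and not on the one with the highest mean. On the third of its probe sets it read 5.78 and 5.88 in the uninduced and induced A3 cultures, 5.25 and 5.08 in A4 and 5.23 and 5.38 in A5. Both A3 arrays lay above the other 4, by 0.60 ± 0.09 (SE, adjusted p = 0.0287 by limma's F-test, range 0.67). The 2 other probe sets had the same direction, with A3 above the mean of the other clones by 0.24 ± 0.08 and 0.30 ± 0.08, but were not called (adjusted p = 0.308 and 0.188, limma). This was 1 of the 64 probe sets of all members, where 2.18% of all probe sets were called. The reading was added after the values were seen. The third probe set's mean, 5.43, is in the low range.

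Of the 86 other pathway genes, 1 passed the clone term, where 2.18% of all probe sets did. At an unadjusted p under 0.05 there were 17 (19.8%), against 15.0% of all probe sets. The gene that passed was Zc3hav1, which encodes ZAP, an antiviral protein that binds CpG-rich RNA. Zc3hav1 read 7.00 and 6.87 in A3, 7.50 and 7.45 in A4 and 7.67 and 7.63 in A5, uninduced first, so that A3 was lowest in both states. A3 lay 0.63 ± 0.07 (SE) below the mean of the others (adjusted p = 0.0101 by limma's F-test). Its other probe sets gave -0.29 ± 0.08 and -0.14 ± 0.09 for A3 minus the others and were not called (adjusted p = 0.234 and 0.643, limma). Some cell type markers differed between the clones as well. Of the 37 markers measured 4 passed the clone term (10.8%, against 2.18% of all probe sets). The trophoblast markers Tfap2c and Eomes were lowest in A3: Tfap2c averaged 8.32 there, against 9.42 for A4 and 9.10 for A5 (adjusted p = 0.00233, limma), and Eomes 6.01, against 6.88 and 6.64 (adjusted p = 0.0107, limma). The macrophage marker Cd68 was highest in A3, at 8.75, against 8.08 and 7.80 (adjusted p = 0.0101, limma). The leukocyte list as a whole did not share this. Itgam was also highest in A3, but Ptprc, Csf1r, Tyrobp, Fcer1g and Cd14 were lowest there. The mean over the leukocyte markers was 4.86 and 4.85 on the A3 arrays and 4.78 to 4.89 on the other 4. Dab2, a primitive endoderm marker in the low range, was highest in A5, at 5.40, against 4.99 for A3 and 4.90 for A4 (adjusted p = 0.0390, limma). The mean over the 5 trophoblast markers was 5.62 and 5.50 on the A3 arrays and 5.86 to 6.09 on the other 4, and that of primitive endoderm was 4.46 and 4.49 against 4.53 to 4.74.

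Poly-A control transcripts, added before labelling, had means of 6.17 and 6.46 on the A3 arrays and 5.71 to 6.15 on the other 4, and the part of these controls and of the marker differences in the A3 values above was not tested. The 3′ minus 5′ signal of Actb was 0.27 to 0.36 on all arrays.

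**Figure D4:**
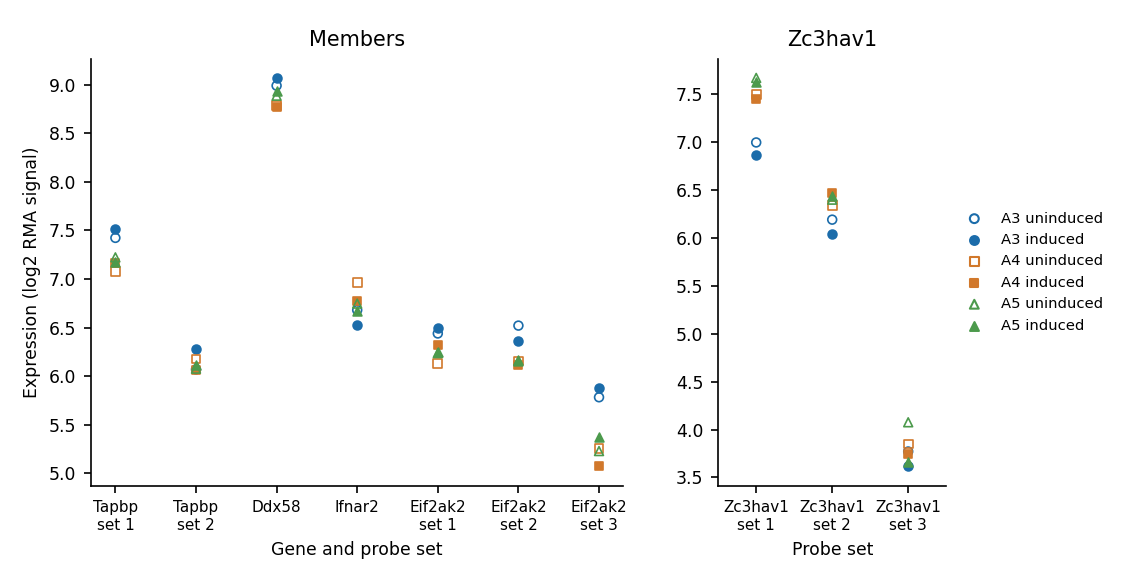
Expression (log2 RMA signal, y axis) on each of the 6 arrays for probe sets (x axis) of the 4 genes with an unadjusted p under 0.05 for the clone term and, in the right panel, of Zc3hav1. Uninduced cultures have open symbols and induced ones filled symbols. On the third probe set of Eif2ak2 both A3 arrays lie above the 4 others, and on the first of Zc3hav1 both lie below.

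Promoter sequence was not used in the choice of the members. RefSeq gives a promoter window (250 bases before to 50 after the start, GRCm38.p6) for 33 of the 37 genes, all but Mx1, Mx2, Tap2 and Usp18. The ISRE pattern GAAANNGAAA, searched on both strands, was found in 12 of the 33 (36.4%), against 3.99% of 27025 genes. The pattern of the gamma-activated site, TTCNNNGAA, which reads the same on both strands and is bound by STAT dimers, was found in 10 (30.3%), against 9.55% of genes. In Bst2 the 2 patterns overlap, with the gamma-activated site at -136 and ISRE matches at -130 and -124. Isg15, which has no value on these arrays, held 3 overlapping ISRE matches, at -78, -72 and -66.

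A match did not sort the genes by signal. Of the 20 members above the low range that have a window, 6 held an ISRE match: Ddx58, Eif2ak2, Ifitm2, Ifitm3, Bst2 and B2m. Of the 12 in the low range, 5 did: Stat2, Irf2, Ifih1, Ifit1 and Ifit3. The matches of Ddx58, Ifih1, Eif2ak2 and Ifitm3 lie after the start, at 3, 33, 19 and, in Ifitm3, 3 and 20. The printed windows held 2 upstream matches each in Ifit1 and Ifit3, which were in the low range, 1 in Ifitm2 and none in Ifitm1, both near the top of the signal scale. A match of letters is not a binding site, and no match says only that these letters are not in the window.

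Base composition varied as widely. The CpG ratio, the observed over the expected number of CG pairs, had a median of 0.600 over the members' windows and 0.390 over those of all genes. Members above the low range had a median of 0.675 and those in it 0.520, and the ratio was over 0.5 in 16 of 20 and in 7 of 12. Over these 32 members the ratio and the mean signal correlated at 0.02 (Pearson) and 0.17 (Spearman). Without the Ifitm genes, which left 29, both correlations were 0.49. Leaving them out removes members with low ratios and the highest signals, so this value depends on that choice. The Ifitm genes stood apart, with ratios of 0.257, 0.216 and 0.238 for Ifitm1, Ifitm2 and Ifitm3. Ifit1 and Ifit3 had low ratios too, at 0.211 and 0.0564, and Irf9 one of 0.220. Tbk1, at 1.05, Irf1, at 0.968, and Tyk2, at 0.936, had the highest. These are descriptions over the listed genes, and no test was made.

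**Figure D5:**
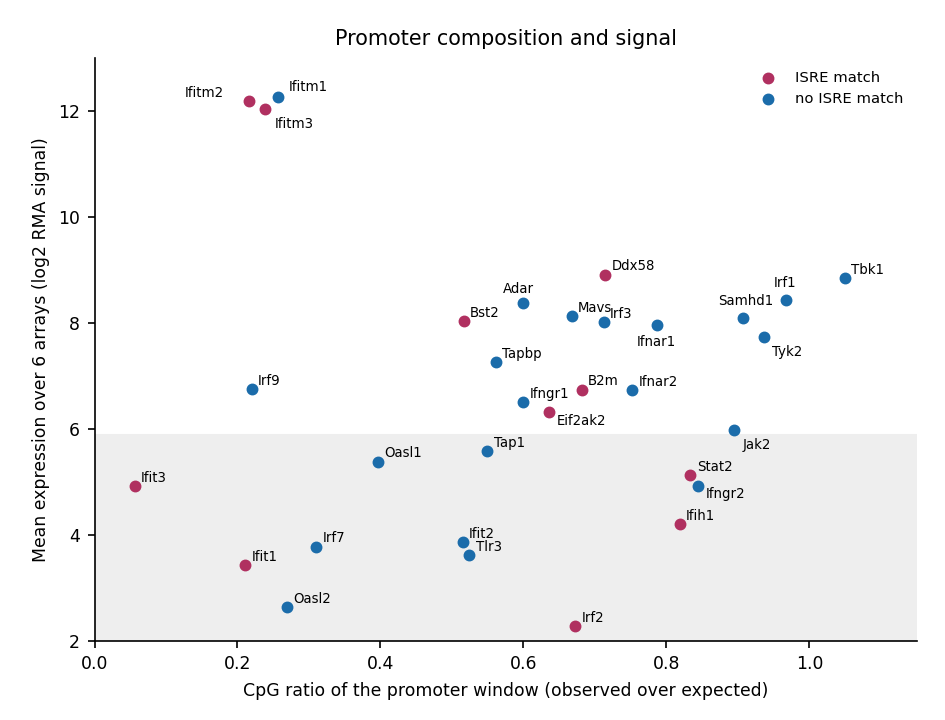
Mean expression over 6 arrays (log2 RMA signal, y axis) against the CpG ratio of the promoter window (observed over expected, x axis) for the 32 measured members with a window, coloured by whether an ISRE match was found, with the low range as a grey band. Genes with a match lie on both sides of the limit, and the 3 Ifitm genes lie at top left, with low ratios and signals above 12.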

How the data were processed

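Total RNA of 6 cultures was hybridised to 1 Affymetrix array each. The deposited table gives 1 log2 value per probe set and array, which the authors obtained by RMA with the affy package, by background correction, quantile normalisation and summarisation (affy and RMA per the submitters' processing notes, versions not given in the sources used here; which arrays were normalised together is not stated). No other value of a sample was used, and columns of no other series are in the table.

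Of 45101 probe sets 64 are controls. The other 45037 were fitted without a filter on intensity. The platform annotation gives 34945 of them 1 gene symbol, 932 several and 9160 none, and a gene was named only from a single symbol, by whichever of its probe sets had the highest mean. The effect of induction was tested with limma 3.58.1 in R 4.3.3 (lmFit and eBayes, two-sided, Benjamini-Hochberg over all 45037 probe sets, threshold 0.05), without a block, since the study's methods name a t-test of induced against uninduced arrays and mention no pairing. Differences between clones were tested with limma's moderated F-test for clone, with induction kept in the model. The samples pair, since both arrays of a clone come from 1 line, and after removal of group means the arrays of a clone correlated at 0.524, 0.376 and 0.210, against -0.407 to 0.0689 for others. Intervals are 95% intervals of the limma fit. The number of arrays limits the precision, and the pipeline was tested on simulated data. There the noise was independent between arrays, so the correlation within clones was not represented.

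The members, the lists of other pathway genes, reference genes and markers, and the tests were chosen with earlier results of these data known. All members are named, of the other pathway genes those called and up to 3 of each role with the highest mean, and up to 3 markers of each cell type with the highest mean. Ptprc was named in addition, after its value was seen. Alternatives were the clone as a block, the methods' t-test, a paired test, an intensity trend, centred arrays, a minimum mean of 5, the mean of a gene's probe sets, and leaving out each array or clone.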

Additional observations from a re-analysis of the deposited data

How the results depend on the processing

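With the replicate block, limma called 0 members on induction and their median difference stayed at 0.0205, and the block changed no other call. Every other planned setting also gave 0 calls on induction for all probe sets, members and other pathway genes, and the members' median difference was 0.000385 to 0.0345, lowest without both A3 arrays. The signs of uncalled members were not stable: up to 10 of 36 turned without both A3 arrays or without the induced A3 array. Members called for the clone term numbered 0 in every setting, with a smallest adjusted p of 0.054 by limma over all of them. For all probe sets that count, 980 as reported, was 26 without both A3 arrays, 1885 among probe sets averaging 5 or more, 2641 when the variance prior followed intensity, and 248 to 860 when 1 array was left out. It was lowest without the induced A3 array (248), then without the uninduced A3 (413) and the uninduced A4 array (633). For other pathway genes the clone count, 1 as reported, was 7 with that prior, 4 among probe sets averaging 5 or more, 0 with the mean of a gene's probe sets, 0 without both A3 arrays, 2 without both A4 arrays and 0 to 2 when 1 array was left out, with 0 wherever an A3 array was left out. Fewer arrays or probe sets were tested in several of these settings, and the cause of each shift was not tested. Members above the low range numbered 25 with a fixed limit of 5 and 20 on the uninduced or the induced arrays alone. With 3 arrays per group, the farther end of the members' intervals had a median of 1.20-fold.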
